A study of Drosophila melanogaster with 12 samples.

Results

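The gene expression of photoreceptor nuclei was compared between Rh1>ClkDN and Rh1>Ctrl male flies at day 10. The comparison took the 6 day 10 libraries of a series of 12, with 3 Rh1>ClkDN (ClkDN) and 3 Rh1>Ctrl (Ctrl) libraries. A gene was tested where 3 or more of the 6 libraries held 10 or more of its counts, which was so for 7875 of the 13929 genes in the count table. Rh1>ClkDN flies carried UAS-ClkDN, which encodes a dominant negative form of Clock. Rh1>Ctrl flies carried UAS-LacZ, which encodes bacterial beta-galactosidase. Both genotypes shared the Rh1-Gal4 driver, which is expressed in the outer photoreceptors R1 to R6 from late pupal development, a UAS transgene for GFP fused to the Msp300 KASH domain, the ry506 allele, and a w (white) mutant background. All flies were kept in equal periods of light and dark and were taken at ZT9, 9 hours after lights on. The GFP-KASH tag sits on the nuclear envelope of the driver's cells and was used to pull down their nuclei from pools of 400 males per library. The RNA is therefore nuclear and a mean over many flies at 1 time of day, and amplitude or phase of a rhythm cannot be read from it.

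The fly circadian clock is built on the heterodimer of Clk and Cyc, a pair of bHLH-PAS transcription factors that bind E-boxes. They activate per and tim, whose proteins return to the nucleus and inhibit Clk and Cyc, and they activate vri, Pdp1 and cwo, which form further loops. The dominant negative form lacks the basic region that contacts DNA and still pairs with Cyc. Fly photoreceptors carry their own clock. Their light response runs from rhodopsin through a Gq protein and phospholipase C to the channels TRP and TRPL in the rhabdomere, and they signal to the brain with histamine.

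The Rh1>ClkDN libraries held between 4452076 and 4939198 counts and the Rh1>Ctrl libraries held 3020600, 1356529 and 4862510, so replicate 2 of Rh1>Ctrl was the shallowest. Replicates of Rh1>Ctrl also differed more from each other than those of Rh1>ClkDN, as pairs of Rh1>ClkDN libraries gave a chi-square of 3.10 to 5.98 per degree of freedom and pairs of Rh1>Ctrl libraries gave 19.5 to 58.0. Scaled to the depth of the shallowest library, between 10659.8 and 10685.1 genes were expected to have a count in the Rh1>ClkDN libraries, against 8638 to 9386 genes in the Rh1>Ctrl libraries. The nuclei carried the defining genes of outer photoreceptors in both genotypes. The 12 photoreceptor markers on the list used here summed to 35970 to 36857 CPM, the counts scaled to a library total of 1000000 with TMM factors, in Rh1>ClkDN, against 85975 to 115786 CPM in Rh1>Ctrl. In the same libraries, 17 glial genes summed to 2166 to 2286 CPM in Rh1>ClkDN and 1985 to 2614 CPM in Rh1>Ctrl, and 13 genes of central neurons summed to 421 to 485 CPM in Rh1>ClkDN and 260 to 471 CPM in Rh1>Ctrl. Most of the glial sum came from Eaat1, which rose, and Eaat2, which fell, so that sum does not show whether the glial share changed. In a bulk sample, fewer photoreceptor nuclei and less photoreceptor RNA per nucleus cannot be told apart, and the part that either plays in the results was not tested.

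Clk was expressed at 9496, 8156 and 9372 CPM in the ClkDN libraries, against 73.3, 31.8 and 75.1 CPM in the Ctrl libraries. The Rh1>ClkDN libraries were far above all Rh1>Ctrl libraries (log2 fold change 7.21 ± 0.38, adjusted p = 1.01e-05), as the labels imply. The deposited counts add reads of the transgene to those of the endogenous gene, so the level of endogenous Clk is not given by this value. The eye colour gene w, whose marker copies are carried by the transgenes, had 3727, 3238 and 3623 CPM in the ClkDN libraries, against 1058, 1220.1 and 985 CPM in the Ctrl libraries (log2 fold change 1.70 ± 0.18, adjusted p = 0.000302). Reads of marker copies and of the mutant endogenous allele cannot be told apart there either.

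Direct targets of Clk and Cyc fell together. The repressor gene tim had 2406, 2498 and 2501 CPM in the ClkDN libraries, against 15557, 15023 and 14367 CPM in the Ctrl libraries, and no Rh1>ClkDN library came near the Rh1>Ctrl range (log2 fold change -2.60 ± 0.17, adjusted p = 2.71e-05). Its partner per had 194, 176 and 195 CPM in the ClkDN libraries, against 522, 1313 and 805 CPM in the Ctrl libraries (log2 fold change -2.22 ± 0.32, adjusted p = 0.00156), with the limit that per overlaps the antisense gene dyw and the strand setting of the counting is not given in the sources used here. For vri, a bZIP repressor of Clk transcription, the values were 327, 329 and 311 CPM in the ClkDN libraries, against 1577, 1272 and 1463 CPM in the Ctrl libraries (log2 fold change -2.16 ± 0.18, adjusted p = 8.84e-05).

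The bHLH-Orange repressor cwo had 154, 179 and 158 CPM in the ClkDN libraries, against 609.9, 307 and 494 CPM in the Ctrl libraries (log2 fold change -1.52 ± 0.26, adjusted p = 0.00374). Cipc, the fly relative of the mammalian Clock-interacting protein, had 52.7, 43.9 and 54.7 CPM in the ClkDN libraries, against 431, 199 and 325 CPM in the Ctrl libraries (log2 fold change -2.66 ± 0.30, adjusted p = 0.000448), and was among the 10 largest falls of the comparison. The groups did not overlap in any of these 5 genes, and each was called in all 17 alternative settings. The remaining arms of the clock were not called. The activator Pdp1 had 3338, 4027 and 3256 CPM in the ClkDN libraries, against 9773, 3268 and 7290.1 CPM in the Ctrl libraries, where the groups overlapped (log2 fold change -0.94 ± 0.35, adjusted p = 0.087). For cyc the values were 14.7, 12.5 and 9.43 CPM in the ClkDN libraries, against 16.7, 26.2 and 23.1 CPM in the Ctrl libraries (log2 fold change -0.83 ± 0.31, adjusted p = 0.0887). Pdp1 was called down without replicate 2 and cyc without replicate 1 of Rh1>Ctrl. Of the 16 core clock and light input genes tested, a list without Cipc, 1 rose and 4 fell, and between 4 and 6 were called down when single libraries were left out.

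Across all genes, 1138 rose (14.5% of the 7875 tested) and 714 fell (9.07%) at an adjusted p under 0.05 with a fold change over 1.5. Together these were 23.5% of the genes tested. The groups did not overlap in 1871 genes with Rh1>ClkDN above (23.8%) and 1455 genes with Rh1>ClkDN below (18.5%). The rises were larger than the falls and came from weaker genes. The median log2 fold change was 2.56 among the genes that rose and -1.16 among those that fell, and their median levels over all 6 libraries were 13.4 CPM and 77.2 CPM, beside 14.2 CPM over all genes tested. A total of 733 genes rose at least 4-fold by the fitted values and 52 fell as much. Among the rises were 287 of 306 tested genes with 3 or fewer counts in every Rh1>Ctrl library. Such genes passed the filter only through their counts in Rh1>ClkDN, so they had to be higher there. No tested gene had 3 or fewer counts in every Rh1>ClkDN library. To be tested, such a gene had to reach the filter's minimum in all Rh1>Ctrl libraries, the shallowest of which held 1356529 counts. A gene near 0 in Rh1>Ctrl had to reach it in the Rh1>ClkDN libraries, which all held at least 4452076 counts. The filter was thus stricter for genes near 0 in Rh1>ClkDN, so their absence cannot be set against the 306 genes. The filter's part in the larger rises from weaker genes was not tested.

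**Figure D1:**
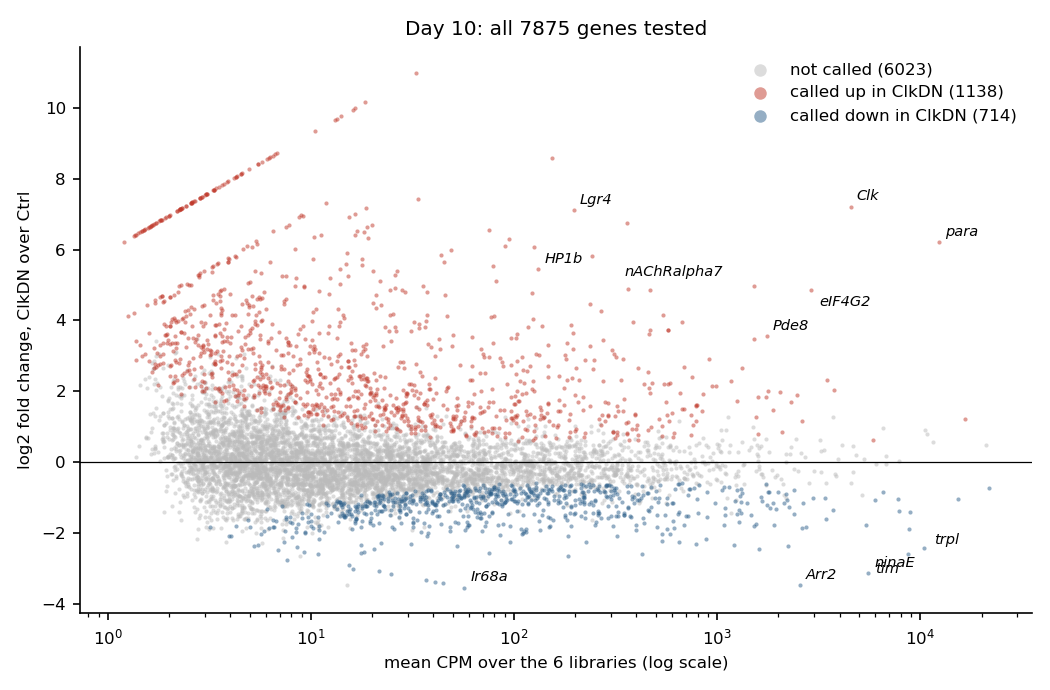
Each point is 1 of the 7875 genes tested, with its mean level over the 6 libraries in CPM on a log axis and its log2 fold change, Rh1>ClkDN over Rh1>Ctrl; coloured points are the 1138 genes that rose and the 714 that fell. Clk, para and Lgr4 stand far above 0. Among the strong falls, ninaE and Arr2 are abundant genes and Ir68a is a weaker gene.

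The size of these counts depended on single libraries, and their direction did not. Without the shallow replicate 2 of Rh1>Ctrl, 1527 genes rose and 923 fell, and 1135 of the 1138 rises and 631 of the 714 falls were called again. Without replicate 3 of Rh1>Ctrl, 890 rose and 366 fell. Without any 1 of the Rh1>ClkDN libraries, between 393 and 397 rose and between 155 and 159 fell, and all but 1 of these falls and all of these rises were among the calls from all libraries. No gene called from all libraries was called the other way in any of these fits.

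Phototransduction genes fell as a group in number and size. Of the 37 genes of the cascade tested, 19 fell and 1 rose, with a median log2 fold change of -0.95 beside -0.03 over all genes tested. The count was 23 without replicate 2 of Rh1>Ctrl, and 9 to 11 without any 1 Rh1>ClkDN library. Of the 12 photoreceptor markers, most of which belong to the cascade, 11 fell. The opsin of the outer photoreceptors, ninaE (Rh1), had 1155, 1131 and 1133 CPM in the ClkDN libraries, against 10202, 9668 and 9972 CPM in the Ctrl libraries, a narrow spread in both groups with no overlap (log2 fold change -3.13 ± 0.17, adjusted p = 1.1e-05). Arr2, the major arrestin that switches off rhodopsin, had 431, 421 and 413 CPM in the ClkDN libraries, against 3663, 5979.6 and 4386 CPM in the Ctrl libraries (log2 fold change -3.47 ± 0.23, adjusted p = 3.4e-05), the second largest fall among the genes ranked here. The other arrestin gene, Arr1, had 249.9, 284 and 258 CPM in the ClkDN libraries, against 1472, 1367 and 1076 CPM in the Ctrl libraries (log2 fold change -2.30 ± 0.20, adjusted p = 0.000105).

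The genes for both light-gated channels fell. For trpl the values were 3347, 3049 and 3371 CPM in the ClkDN libraries, against 11548, 23813 and 17037 CPM in the Ctrl libraries (log2 fold change -2.42 ± 0.27, adjusted p = 0.000423), and for trp they were 3827, 3567 and 3838 CPM in the ClkDN libraries, against 9974, 19118 and 12127 CPM in the Ctrl libraries (log2 fold change -1.88 ± 0.25, adjusted p = 0.00118). Replicate 2 of Rh1>Ctrl was the highest library for both channels, and both were called without it. The scaffold gene inaD, which holds TRP, the phospholipase and the kinase in a complex, had 211, 221 and 237 CPM in the ClkDN libraries, against 539.5, 1816 and 859 CPM in the Ctrl libraries (log2 fold change -2.26 ± 0.40, adjusted p = 0.00428), with RpL23 on the other strand, and was not called without replicate 2 of Rh1>ClkDN. The myosin III gene ninaC had 4377, 4510.0 and 4289 CPM in the ClkDN libraries, against 11162, 10311 and 12544 CPM in the Ctrl libraries (log2 fold change -1.37 ± 0.17, adjusted p = 0.000678).

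The phospholipase C gene norpA, the most abundant member of the cascade to fall, had 15539, 17725 and 15953 CPM in the ClkDN libraries, against 25079, 34068 and 21852 CPM in the Ctrl libraries. The fall was small (log2 fold change -0.72 ± 0.21, adjusted p = 0.0357) and was called in 7 of 17 alternative settings, among them no fit without a Rh1>ClkDN library or without replicate 2 or 3 of Rh1>Ctrl. The Gq alpha gene Galphaq was not called, with 170.4, 209 and 163 CPM in the ClkDN libraries, against 715, 55.9 and 353 CPM in the Ctrl libraries, where the groups overlapped with replicate 2 of Rh1>Ctrl the lowest library of all 6, and was called down without that library. Neither the protein kinase C gene inaC nor the diacylglycerol kinase gene rdgA was called, at log2 fold changes of -0.38 and 0.49 (adjusted p = 0.133 and 0.068).

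One member of the cascade rose. The diacylglycerol lipase gene inaE, whose product acts on the lipid that phospholipase C releases, had 1227, 1104 and 1249 CPM in the ClkDN libraries, against 212, 151 and 188 CPM in the Ctrl libraries, without overlap (log2 fold change 2.70 ± 0.20, adjusted p = 5.48e-05). The call held in all 17 alternative settings, and without replicate 1 of Rh1>Ctrl 2 members rose. The genes Arr1, inaD, Galphaq, inaC and rdgA were picked out after their values had been seen.

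Genes that supply the chromophore and carry the photoreceptor's signal also fell in part. Of 17 genes of chromophore supply and rhodopsin maturation, 4 fell and 1 rose, with 2 falls and no rise left without any 1 Rh1>ClkDN library and 8 falls without replicate 1 of Rh1>Ctrl. The scavenger receptor gene ninaD, needed for uptake of carotenoids, had 6.59, 7.84 and 6.86 CPM in the ClkDN libraries, against 96, 65.1 and 61.4 CPM in the Ctrl libraries, a clear separation of the groups (log2 fold change -3.38 ± 0.28, adjusted p = 9.46e-05). The beta-carotene oxygenase gene ninaB had 32, 34.1 and 29.8 CPM in the ClkDN libraries, against 76.3, 176 and 81.6 CPM in the Ctrl libraries (log2 fold change -1.79 ± 0.34, adjusted p = 0.00599), with genes on the other strand and no call without any 1 Rh1>ClkDN library. The calnexin gene Cnx99A, a chaperone of rhodopsin in the endoplasmic reticulum, had 347, 296 and 374 CPM in the ClkDN libraries, against 756, 1188 and 867 CPM in the Ctrl libraries (log2 fold change -1.47 ± 0.22, adjusted p = 0.00199).

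Of 10 genes of histamine synthesis, recycling and reception, 4 fell and 1 rose, but only 1 fall was called without any 1 Rh1>ClkDN library, or without replicate 3 of Rh1>Ctrl, and 2 without replicate 1 of Rh1>Ctrl. Hdc, the histidine decarboxylase that makes histamine, had 85.3, 89.4 and 98.4 CPM in the ClkDN libraries, against 239.6, 280.1 and 274 CPM in the Ctrl libraries (log2 fold change -1.54 ± 0.19, adjusted p = 0.000623), and was called in all 17 alternative settings. The hydrolase gene t (tan), which frees histamine from its conjugate, had 109, 103 and 122 CPM in the ClkDN libraries, against 386, 132 and 287 CPM in the Ctrl libraries (log2 fold change -1.27 ± 0.35, adjusted p = 0.0295), with replicate 2 of Rh1>Ctrl close to the Rh1>ClkDN range, and was not called without any 1 Rh1>ClkDN library or without replicate 1 or 3 of Rh1>Ctrl. The rise was in ogre, an innexin gene, with 60.9, 45.9 and 51 CPM in the ClkDN libraries, against 14.1, 10.6 and 13.9 CPM in the Ctrl libraries (log2 fold change 2.00 ± 0.25, adjusted p = 0.000816).

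Among 34 genes of rhabdomere, apical membrane and cytoskeleton, 14 fell and 3 rose, with a median log2 fold change of -0.46. Without any 1 Rh1>ClkDN library 6 falls were called, without replicate 3 of Rh1>Ctrl 9 falls were, and without replicate 1 of Rh1>Ctrl 5 rises were. The gene for the apical polarity determinant Crumbs, crb, had 889, 855 and 844 CPM in the ClkDN libraries, against 2601, 3401 and 2838 CPM in the Ctrl libraries (log2 fold change -1.77 ± 0.18, adjusted p = 0.000256). For kst, which encodes the beta-heavy spectrin bound to the Crumbs complex, the values were 723, 718 and 728 CPM in the ClkDN libraries, against 2215, 6171 and 2887 CPM in the Ctrl libraries (log2 fold change -2.38 ± 0.36, adjusted p = 0.00203), with replicate 2 of Rh1>Ctrl highest in its group. The adhesion protein gene chp (chaoptin) had 4092, 3369 and 4064 CPM in the ClkDN libraries, against 9091, 5431 and 9811 CPM in the Ctrl libraries (log2 fold change -1.08 ± 0.24, adjusted p = 0.0134), a call lost without any 1 Rh1>ClkDN library or replicate 3 of Rh1>Ctrl. The gene prom, picked out after its values were seen, encodes the rhabdomere membrane protein prominin and had 721, 569.8 and 732 CPM in the ClkDN libraries, against 1703, 2818 and 2581 CPM in the Ctrl libraries (log2 fold change -1.81 ± 0.24, adjusted p = 0.000927). In these 4 genes the groups were apart.

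**Figure D2:**
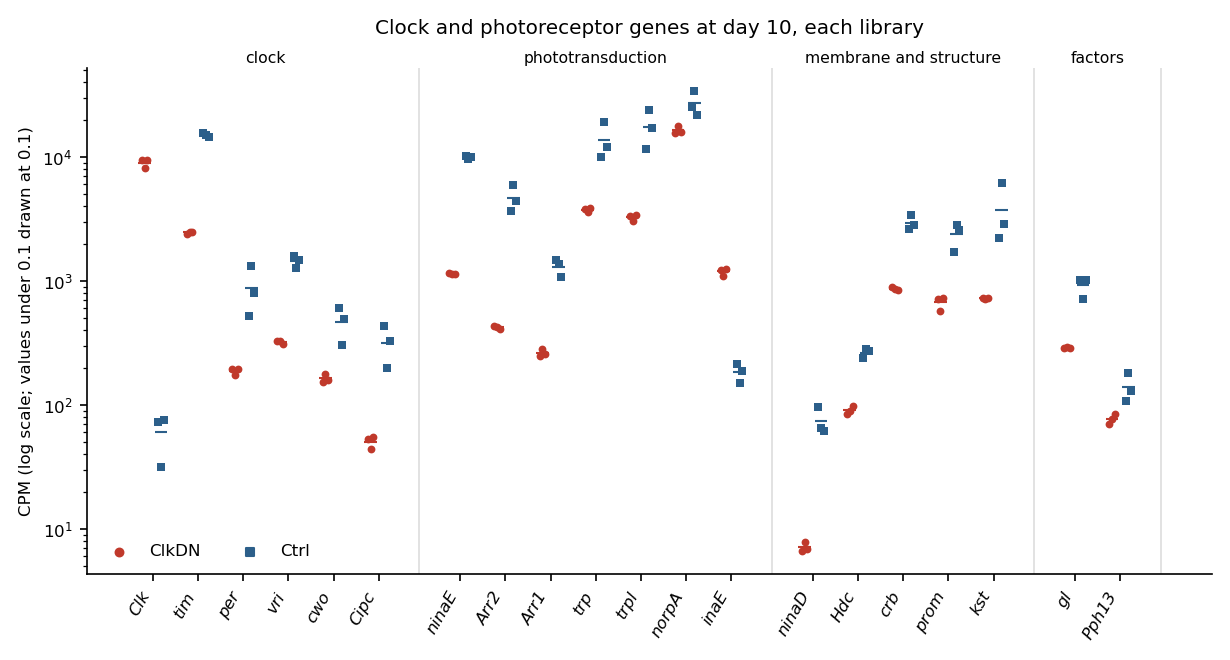
Level of 20 genes of the clock, phototransduction, chromophore, histamine, membrane and identity groups in each library, in CPM on a log axis, with the 3 Rh1>ClkDN libraries left of the 3 Rh1>Ctrl libraries for each gene. Clk and inaE are higher in every Rh1>ClkDN library, and the groups do not overlap in any gene drawn.

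A second set of genes, those of neuronal excitability, held members that moved in both directions. The strongest change was in para, which encodes the voltage-gated sodium channel of fly action potentials. It had 23338, 25613 and 24066 CPM in the ClkDN libraries, against 449, 202 and 327 CPM in the Ctrl libraries (log2 fold change 6.22 ± 0.34, adjusted p = 1.11e-05), so that it was among the most abundant genes of Rh1>ClkDN nuclei and a weak gene in Rh1>Ctrl. Of the 10 sodium channel and associated genes tested, 4 rose and 2 fell. The channel gene NaCP60E had 1015, 1028 and 1015 CPM in the ClkDN libraries, against 429, 272 and 372 CPM in the Ctrl libraries (log2 fold change 1.51 ± 0.21, adjusted p = 0.00129) and na, the sodium leak channel, had 153, 139 and 140.0 CPM in the ClkDN libraries, against 41.7, 84.2 and 53.1 CPM in the Ctrl libraries (log2 fold change 1.28 ± 0.27, adjusted p = 0.01). The genes of the leak channel's partners went the other way. The values of unc80 were 91.1, 75.3 and 101.4 CPM in the ClkDN libraries, against 148, 212 and 161 CPM in the Ctrl libraries (log2 fold change -0.96 ± 0.22, adjusted p = 0.0154), and unc79 fell by a like amount (log2 fold change -0.97). None of na, unc79 and unc80 was called without any 1 Rh1>ClkDN library, nor na and unc80 without replicate 3 of Rh1>Ctrl.

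Of 22 potassium and related channel genes, 4 rose (18.2%) and 3 fell (13.6%), near the 14.5% and 9.07% of all genes. Their median log2 fold change was 0.12, and 4 rose and 1 fell without any 1 Rh1>ClkDN library. The calcium-activated channel gene SK had 5794, 6431 and 5906 CPM in the ClkDN libraries, against 2052, 706 and 1615 CPM in the Ctrl libraries (log2 fold change 2.05 ± 0.35, adjusted p = 0.00357). The hyperpolarization-activated channel gene Ih had 744, 794 and 797 CPM in the ClkDN libraries, against 175, 78.5 and 144 CPM in the Ctrl libraries (log2 fold change 2.55 ± 0.29, adjusted p = 0.000483), and Elk, an ether-a-go-go family channel, had 672, 721 and 718 CPM in the ClkDN libraries, against 28.3, 13.4 and 27.9 CPM in the Ctrl libraries (log2 fold change 4.89 ± 0.30, adjusted p = 2.37e-05). The groups were wide apart in each. Shaw, a delayed rectifier, had a log2 fold change of 3.03. Among the falls was Slob, which binds the Slowpoke channel, with 2475, 2269 and 2529 CPM in the ClkDN libraries, against 11122, 4919 and 8948 CPM in the Ctrl libraries (log2 fold change -1.78 ± 0.29, adjusted p = 0.00271).

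Calcium handling genes fell more often than they rose, with 5 falls and 2 rises among 13 genes tested, but 2 falls were left without any 1 Rh1>ClkDN library. The inositol trisphosphate receptor gene Itpr had 75.8, 67.2 and 69.4 CPM in the ClkDN libraries, against 249, 354 and 294 CPM in the Ctrl libraries (log2 fold change -2.08 ± 0.21, adjusted p = 0.000235). Itpr was picked out after its values were seen. The store-operated channel gene Orai had 137, 147 and 132 CPM in the ClkDN libraries, against 714, 195 and 521 CPM in the Ctrl libraries (log2 fold change -1.79 ± 0.40, adjusted p = 0.0131), with replicate 2 of Rh1>Ctrl lowest in its group, and was not called without any 1 Rh1>ClkDN library or replicate 3 of Rh1>Ctrl. The rises were in Ca-alpha1T, a T-type channel, and Stacl, which is related to adaptors of L-type channels. Stacl had 1283, 1244 and 1275 CPM in the ClkDN libraries, against 266, 175 and 275 CPM in the Ctrl libraries (log2 fold change 2.41 ± 0.22, adjusted p = 0.000151).

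Calls among transmitter receptor genes are read beside the 14.5% of all genes that rose. None of 9 glutamate receptor genes was called, although 1 rose and 1 fell without replicate 2 of Rh1>Ctrl. Of 9 nicotinic receptor subunits, 1 rose (11.1%) and none fell, although 3 fell without replicate 2 of Rh1>Ctrl. The subunit nAChRalpha7 had 2842, 3137 and 2852 CPM in the ClkDN libraries, against 129.9, 70.02 and 81.4 CPM in the Ctrl libraries (log2 fold change 4.97 ± 0.28, adjusted p = 1.44e-05). Of 8 GABA and related chloride channel genes, 4 rose and none fell, and 2 of these rises were called without any 1 Rh1>ClkDN library or without replicate 3 of Rh1>Ctrl. The pH-sensitive chloride channel gene pHCl-1 had 1289, 1492 and 1251 CPM in the ClkDN libraries, against 505, 218 and 339.7 CPM in the Ctrl libraries (log2 fold change 1.92 ± 0.29, adjusted p = 0.00218). Of 19 amine and adenosine receptor genes, 4 rose (21.1%) and 1 fell, and 2 fell without replicate 2 or replicate 3 of Rh1>Ctrl. Octbeta3R, an octopamine receptor, had 169.8, 184 and 152 CPM in the ClkDN libraries, against 18.6, 34 and 23.7 CPM in the Ctrl libraries (log2 fold change 2.75 ± 0.27, adjusted p = 0.000196), whereas the adenosine receptor gene AdoR had 5.82, 2.24 and 5.79 CPM in the ClkDN libraries, against 45.8, 20.5 and 49.3 CPM in the Ctrl libraries (log2 fold change -3.07 ± 0.46, adjusted p = 0.00197).

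Of 26 neuropeptide and peptide hormone receptor genes, 9 rose and 1 fell, but 2 or 3 rises were left without any 1 Rh1>ClkDN library and 3 without replicate 3 of Rh1>Ctrl. The relaxin receptor relative Lgr4 had 421, 343 and 406 CPM in the ClkDN libraries, against 3.35, 2.12 and 2.71 CPM in the Ctrl libraries (log2 fold change 7.11 ± 0.27, adjusted p = 7.34e-06), with CG12096 on the other strand. Eaat1, a glutamate transporter gene that is a glial marker in the fly brain, had 1265, 1309.6 and 1224 CPM in the ClkDN libraries, against 109.8, 54.5 and 78.3 CPM in the Ctrl libraries (log2 fold change 3.96 ± 0.28, adjusted p = 4.08e-05). Eaat2, its relative, fell, with 504, 484 and 477 CPM in the ClkDN libraries, against 1984, 1367 and 1672 CPM in the Ctrl libraries (log2 fold change -1.78 ± 0.19, adjusted p = 0.000398). Of the 14 glial genes tested, 5 rose and 2 fell, and only 1 fall was called without any 1 Rh1>ClkDN library or without replicate 2 or 3 of Rh1>Ctrl. The glial determinant repo was not called, with 6.59, 9.19 and 1.71 CPM in the ClkDN libraries, against 7.81, 29 and 7.28 CPM in the Ctrl libraries, and overlaps a gene on the other strand. The pan-neuronal gene elav was not called either, with 890.5, 1113 and 901 CPM in the ClkDN libraries, against 1194, 183 and 600.5 CPM in the Ctrl libraries, where replicate 2 of Rh1>Ctrl was the lowest library, and was called up without replicate 1 of Rh1>Ctrl. The genes repo and elav were picked out after their values were seen.

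Among further strong rises were 3 genes of cyclic nucleotide phosphodiesterases, picked out after their values were seen. No list of this family was made, so the share of its members that rose is not given. Pde8 had 3367, 3079 and 3234 CPM in the ClkDN libraries, against 235, 318 and 269.5 CPM in the Ctrl libraries (log2 fold change 3.56 ± 0.20, adjusted p = 1.28e-05) and Pde9 had 991, 1076 and 1000.7 CPM in the ClkDN libraries, against 49.5, 64.4 and 59.3 CPM in the Ctrl libraries (log2 fold change 4.15 ± 0.20, adjusted p = 8.99e-06). The values of dnc, the cAMP phosphodiesterase of the learning mutant dunce, were 3694, 4279 and 3742 CPM in the ClkDN libraries, against 1402, 666 and 1090.0 CPM in the Ctrl libraries (log2 fold change 1.89 ± 0.27, adjusted p = 0.00156). The groups were apart in all 3 genes. Of 31 Dpr and DIP genes, which encode interacting immunoglobulin proteins of neurons, 9 rose (29.0%, beside 14.5% of all genes) and none fell, whereas of 19 Beat and Side recognition genes 1 rose and 1 fell, at a median log2 fold change of 0.02. Without replicate 2 of Rh1>Ctrl, 4 of the Beat and Side genes rose. The most abundant of the Dpr and DIP genes that rose were dpr11, with 275, 315 and 269 CPM in the ClkDN libraries, against 64, 55.9 and 80.5 CPM in the Ctrl libraries (log2 fold change 2.09 ± 0.21, adjusted p = 0.000266), and dpr9, with 150.4, 176 and 131 CPM in the ClkDN libraries, against 26.8, 13.4 and 27.9 CPM in the Ctrl libraries (log2 fold change 2.71 ± 0.30, adjusted p = 0.000405). Between 5 and 7 of their rises were called without any 1 Rh1>ClkDN library.

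Many transcription factor genes of eye development rose. Of 19 photoreceptor identity factors tested, 5 rose (26.3%) and 2 fell (10.5%, near the 9.07% of all genes). Their median log2 fold change was 0.20, and without any 1 Rh1>ClkDN library 2 rose and 1 fell. Of 14 retinal determination genes, 8 rose and 1 fell, which was gl, a member of both lists. The median log2 fold change of these 14 was 1.33 (1.15 with the gene that had no Rh1>Ctrl count placed at its lower bound). Without any 1 Rh1>ClkDN library, 4 or 5 rises were called. The homeobox gene so had 766, 682 and 779.7 CPM in the ClkDN libraries, against 192, 148 and 237 CPM in the Ctrl libraries (log2 fold change 1.95 ± 0.22, adjusted p = 0.00046) and its cofactor eya had 145, 157 and 149 CPM in the ClkDN libraries, against 40.2, 46.7 and 39.8 CPM in the Ctrl libraries (log2 fold change 1.84 ± 0.20, adjusted p = 0.000338). The Pax6 genes ey and toy, which lie on chromosome 4, rose as well. The values of ey were 234, 276 and 231 CPM in the ClkDN libraries, against 55.4, 24.8 and 56.4 CPM in the Ctrl libraries (log2 fold change 2.42 ± 0.31, adjusted p = 0.000896), and those of toy were 1456, 1665 and 1466 CPM in the ClkDN libraries, against 586, 87.7 and 360.5 CPM in the Ctrl libraries (log2 fold change 2.14 ± 0.54, adjusted p = 0.0212). The call for toy held in 12 of 17 alternative settings and was lost without any 1 Rh1>ClkDN library or replicate 3 of Rh1>Ctrl.

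The zinc finger gene gl (glass), which is required for the photoreceptor fate, had 286, 295 and 287 CPM in the ClkDN libraries, against 1025, 714 and 1022 CPM in the Ctrl libraries (log2 fold change -1.67 ± 0.20, adjusted p = 0.000623). The homeobox gene Pph13, which acts on rhodopsin and other phototransduction genes, had 69.6, 76.9 and 84.4 CPM in the ClkDN libraries, against 108, 182 and 129 CPM in the Ctrl libraries, a fall that was called in 6 of 17 alternative settings (log2 fold change -0.86 ± 0.24, adjusted p = 0.0332). The homeobox gene oc (orthodenticle), which specifies opsin choice, rose, with 2695, 2910.3 and 2652 CPM in the ClkDN libraries, against 1456, 430.0 and 1109.8 CPM in the Ctrl libraries (log2 fold change 1.46 ± 0.38, adjusted p = 0.0238). The calls for Pph13 and oc were lost without any 1 Rh1>ClkDN library or replicate 3 of Rh1>Ctrl, and that for Pph13 also without replicate 2 of Rh1>Ctrl. The Runt factor gene lz had 69.4, 71.2 and 64.1 CPM in the ClkDN libraries, against 7.81, 4.24 and 2.71 CPM in the Ctrl libraries (log2 fold change 3.82 ± 0.38, adjusted p = 0.000234). The bHLH-PAS gene ss (spineless), which sets a subtype of inner photoreceptor, had 50.02, 45 and 45 CPM in the ClkDN libraries, against 0.372, 4.95 and 1.04 CPM in the Ctrl libraries (log2 fold change 4.85 ± 0.58, adjusted p = 0.000612). Of the 6 inner photoreceptor markers tested, ss was the only 1 to be called, and the opsin gene Rh6, picked out after its values were seen, had 16.9, 9.41 and 11.4 CPM in the ClkDN libraries, against 23.8, 23.3 and 16.7 CPM in the Ctrl libraries.

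Homeotic and segmentation genes rose from very low levels. Of 10 Hox genes and cofactors tested, 8 rose and none fell, with a median log2 fold change of 3.02. Antp had 40.9, 37 and 48.4 CPM in the ClkDN libraries, against 1.49, 2.12 and 2.08 CPM in the Ctrl libraries (log2 fold change 4.45 ± 0.33, adjusted p = 5.23e-05). Abd-B had 39.2, 51.8 and 35.4 CPM in the ClkDN libraries, against 0, 3.54 and 1.04 CPM in the Ctrl libraries, and pb had 28.1, 27.3 and 31.9 CPM in the ClkDN libraries, against 0, 1.41 and 0.624 CPM in the Ctrl libraries, with no more than 5 counts in a Rh1>Ctrl library for either. Of 17 segmentation genes, 11 rose and none fell, with a median of 2.76. The pair-rule gene opa had 48.7, 45.3 and 45 CPM in the ClkDN libraries, against 1.12, 2.83 and 3.54 CPM in the Ctrl libraries (log2 fold change 4.15 ± 0.38, adjusted p = 0.000151). Among 42 other homeobox genes, 17 rose and 1 fell, with a median of 1.19. The neural column gene vnd had 150.3, 144 and 153 CPM in the ClkDN libraries, against 5.95, 16.3 and 5.62 CPM in the Ctrl libraries (log2 fold change 4.13 ± 0.40, adjusted p = 0.000196). Many of these genes reached the filter only through Rh1>ClkDN. With 1 of its libraries left out 5 Hox genes and 7 segmentation genes were tested, of which 2 and 1 rose, and 30 of the other homeobox genes, of which 8 rose. Of 40 further developmental factors of the bHLH, zinc finger and forkhead families, 12 rose and 2 fell, against 2 rises and no fall without any 1 Rh1>ClkDN library. Without replicates 1, 2 and 3 of Rh1>Ctrl in turn, 4, 5 and 0 of these factors fell.

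**Figure D3:**
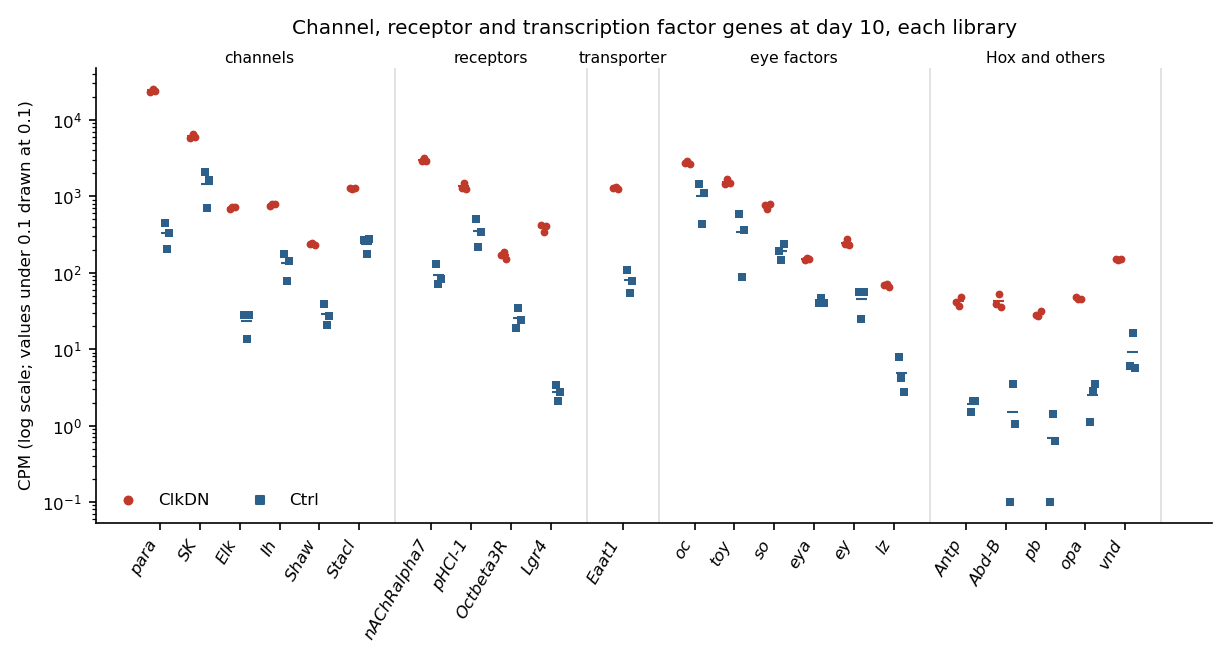
Level of 22 genes of ion channels, receptors, a transporter, eye determination factors, and homeotic and patterning factors in each library, in CPM on a log axis, with the 3 Rh1>ClkDN libraries left of the 3 Rh1>Ctrl libraries; values under 0.1 are drawn at 0.1. In every gene drawn all Rh1>ClkDN libraries lie above all Rh1>Ctrl libraries.

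Genes without a count in Rh1>Ctrl passed the filter through Rh1>ClkDN alone and allow only a lower bound of their fold. The largest fitted rises with a mean of at least 50 counts were CG44532, CG10970, CG43107, CG15370, CG15170, Spn53F and laf, none of which had a count in any Rh1>Ctrl library. CG44532, which lies on the X chromosome, had 63.6, 76.2 and 57.7 CPM in the ClkDN libraries. This was at least 51.1-fold higher against the level of 3 counts per library in Rh1>Ctrl. The bounds of the other 6 lay between 20.4-fold for laf, which had 29.7, 29.8 and 19.5 CPM in the ClkDN libraries, and 28.7-fold for CG10970, which overlaps CG44325. The fitted folds of Clk, Lgr4 and para were above all of these bounds. The next 3 had from 1 to 6 counts in at least 1 Rh1>Ctrl library, so no fold is given for them. Of these rha, which lies antisense to tobi, had 303, 328 and 286 CPM in the ClkDN libraries, against 0, 0.707 and 1.25 CPM in the Ctrl libraries, CG11125 had 70.4, 59.4 and 69.4 CPM in the ClkDN libraries, against 0.744, 0.707 and 0 CPM in the Ctrl libraries, and CG45273 had 23.7, 19.9 and 26.8 CPM in the ClkDN libraries, against 0, 0.707 and 0 CPM in the Ctrl libraries.

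Some chemoreceptor genes, which belong to sensory neurons elsewhere in the fly, also had levels near 0 in Rh1>Ctrl and were called up. Of 12 gustatory receptor genes tested, 7 rose and none fell, with a median log2 fold change of 2.93 (2.70 with bounds). Gr8a had 29.7, 37.4 and 44.8 CPM in the ClkDN libraries, against 0.372, 0 and 0.208 CPM in the Ctrl libraries, and the trehalose receptor gene Gr5a had 10.7, 7.17 and 12 CPM in the ClkDN libraries and no count in the Ctrl libraries (at least 7.72-fold higher). Of 6 odorant receptor genes 3 rose, and of 6 pickpocket channel genes 3 rose, with medians of 2.22 and 2.38 (1.15 and 1.62 with bounds). Of 11 ionotropic receptor genes 4 rose and 1 fell, with a median of 0.29, and of 12 odorant binding protein genes 3 rose (1 without replicate 1 of Rh1>Ctrl), with a median of -0.66. No Rh1>Ctrl library held more than 3 counts in 6 of these gustatory receptor, 3 odorant receptor, 3 pickpocket and 4 ionotropic receptor genes. Those members passed the filter only through Rh1>ClkDN, so they had to be higher there. With any 1 Rh1>ClkDN library left out, 2 to 4 gustatory receptor genes, 3 odorant receptor genes, 2 pickpocket channel genes, 7 ionotropic receptor genes and 9 or 10 odorant binding protein genes were tested and no rise was called. The largest fall of the comparison was in the ionotropic receptor family. Ir68a had 5.23, 7.62 and 14.1 CPM in the ClkDN libraries, against 114.6, 99 and 100.5 CPM in the Ctrl libraries (log2 fold change -3.54 ± 0.36, adjusted p = 0.000276).

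Of 6 accessory gland genes, 4 rose, with Acp36DE at 34.3, 32 and 31.5 CPM in the ClkDN libraries, against 0.372, 0 and 0.208 CPM in the Ctrl libraries. Of 8 eggshell and yolk genes 4 rose, among them dec, a chorion protein gene of the female, with 30.4, 33.8 and 32.8 CPM in the ClkDN libraries, against 0, 1.41 and 0.208 CPM in the Ctrl libraries. Of 9 testis genes 4 rose and 1 fell. These rises stand beside 14.5% of all genes tested. In 3 tested members of each of these lists, no Rh1>Ctrl library held more than 3 counts. Those members passed the filter only through Rh1>ClkDN, so they had to be higher there. Without any 1 Rh1>ClkDN library, 2 accessory gland, 4 eggshell and 4 or 5 testis genes were tested and none was called. The summed level of all 30 accessory gland genes in the table, tested or not, was 113 to 122 CPM in Rh1>ClkDN and 32.7 to 69.3 CPM in Rh1>Ctrl, and that of all 40 testis genes was 126 to 176 CPM in Rh1>ClkDN and 91.8 to 132 CPM in Rh1>Ctrl. The summed level of 23 muscle genes was the other way, with 1343 to 1451 CPM in Rh1>ClkDN and 1936 to 2865 CPM in Rh1>Ctrl. The part of other cells' nuclei or free RNA in these values was not tested.

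Of 33 genes of the endoplasmic reticulum stress response, 6 fell and none rose, with a median log2 fold change of -0.51. Xbp1, the transcription factor spliced by Ire1, had 77, 63.4 and 77.6 CPM in the ClkDN libraries, against 129.9, 146 and 107 CPM in the Ctrl libraries (log2 fold change -0.81 ± 0.21, adjusted p = 0.0248). Only 1 of the 6 falls was called without any 1 Rh1>ClkDN library, 2 without replicate 3 of Rh1>Ctrl, and 9 without replicate 1 of Rh1>Ctrl. Of 38 chaperone genes, 7 rose (18.4%) and 5 fell (13.2%), near the 14.5% and 9.07% of all genes. The constitutive chaperone gene Hsc70-4 had 359.8, 332 and 379 CPM in the ClkDN libraries, against 1049, 1065 and 720.0 CPM in the Ctrl libraries (log2 fold change -1.40 ± 0.21, adjusted p = 0.00181). The heat-inducible gene Hsp70Bb, which has near-identical copies that share reads, had 1597, 2392 and 1841 CPM in the ClkDN libraries, against 644, 60.8 and 479 CPM in the Ctrl libraries (log2 fold change 2.30 ± 0.66, adjusted p = 0.0357), with replicate 2 of Rh1>Ctrl far below the rest. Neither Xbp1 nor Hsp70Bb was called without any 1 Rh1>ClkDN library, nor Hsp70Bb without replicate 3 of Rh1>Ctrl. Without replicate 2 of Rh1>Ctrl, 12 chaperone genes rose and 3 fell. Without replicate 1 or replicate 3 of Rh1>Ctrl 4 rose, and without any 1 Rh1>ClkDN library 2 rose and 1 fell.

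Of 29 antioxidant genes, 4 rose (13.8%) and 2 fell (6.90%), again near the shares of all genes. The 2 subunits of glutamate cysteine ligase, the first enzyme of glutathione synthesis, went opposite ways. The catalytic subunit gene Gclc had 146, 148 and 131 CPM in the ClkDN libraries, against 51.7, 62.2 and 42.3 CPM in the Ctrl libraries (log2 fold change 1.46 ± 0.22, adjusted p = 0.00192), and the modifier subunit gene Gclm had 40.3, 38.8 and 42.2 CPM in the ClkDN libraries, against 67, 201 and 141 CPM in the Ctrl libraries (log2 fold change -1.75 ± 0.36, adjusted p = 0.00904), the last not called without any 1 Rh1>ClkDN library. Without any 1 Rh1>ClkDN library 1 rose and none fell, without replicate 3 of Rh1>Ctrl 1 rose, and without replicate 2 of Rh1>Ctrl 7 rose. Of 30 Toll and Imd pathway genes, 6 rose and 1 fell. The most abundant of those that rose was the NF-kappaB gene Dif, with 309.8, 342 and 297 CPM in the ClkDN libraries, against 39.4, 38.2 and 39.1 CPM in the Ctrl libraries (log2 fold change 3.02 ± 0.19, adjusted p = 2.6e-05), although CG15141 lies on its other strand. The receptor gene Toll-9, a weaker gene with a larger fitted change, had 33.3, 37.4 and 33.6 CPM in the ClkDN libraries, against 2.23, 0 and 0 CPM in the Ctrl libraries (log2 fold change 5.56 ± 0.77, adjusted p = 0.00128), and was not tested without any 1 Rh1>ClkDN library. Without any 1 Rh1>ClkDN library 2 of these genes rose. None of 5 antimicrobial peptide genes was called.

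Among housekeeping groups, the shares of calls differed. Of 71 oxidative phosphorylation subunits, 7 rose (9.86%) and 3 fell (4.23%), below the 14.5% and 9.07% of all genes. Their median log2 fold change was 0.05, and 1 rose and none fell without any 1 Rh1>ClkDN library. Without replicate 3 of Rh1>Ctrl 4 rose and none fell, and without replicate 1 of Rh1>Ctrl 5 fell. Of 72 cytoplasmic ribosomal protein genes, 1 rose and none fell, at a median of -0.36 that was 0.05 without replicate 2 of Rh1>Ctrl, 3 rose without that library, and 9 fell without replicate 1 of Rh1>Ctrl. Of 19 vacuolar ATPase subunits, 5 fell (26.3%, beside 9.07% of all genes) and 1 rose, with a median of -0.55, but no fall was called without any 1 Rh1>ClkDN library and 1 without replicate 3 of Rh1>Ctrl. Vha36-3, the member that rose, had 36.3, 28.9 and 30.6 CPM in the ClkDN libraries, against 2.60, 7.07 and 2.50 CPM in the Ctrl libraries (log2 fold change 3.15 ± 0.42, adjusted p = 0.00106). Of 20 citrate cycle genes 1 rose and none fell.

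Of 21 heterochromatin factors, 2 rose (9.52%) and 1 fell (4.76%), below the 14.5% and 9.07% of all genes. Only 1 rise was called without any 1 Rh1>ClkDN library or without replicate 3 of Rh1>Ctrl. HP1b, a heterochromatin protein 1 paralogue, had 248, 279 and 246 CPM in the ClkDN libraries, against 7.81, 4.24 and 5.20 CPM in the Ctrl libraries (log2 fold change 5.45 ± 0.28, adjusted p = 8.99e-06), and was called in all 17 alternative settings. Of 23 Polycomb group genes, 1 rose (4.35%) and 2 fell (8.70%). However, 6 fell without replicate 1 of Rh1>Ctrl and 5 fell without replicate 2 of Rh1>Ctrl. None fell without replicate 3 of Rh1>Ctrl or without any 1 Rh1>ClkDN library. Among 37 translation initiation factors, eIF4G2 stood out, with 5657, 5493 and 5592 CPM in the ClkDN libraries, against 199, 149 and 225 CPM in the Ctrl libraries (log2 fold change 4.87 ± 0.23, adjusted p = 8.78e-06). It encodes a relative of the scaffold eIF4G known from the testis and overlaps CG33111.

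**Figure D4:**
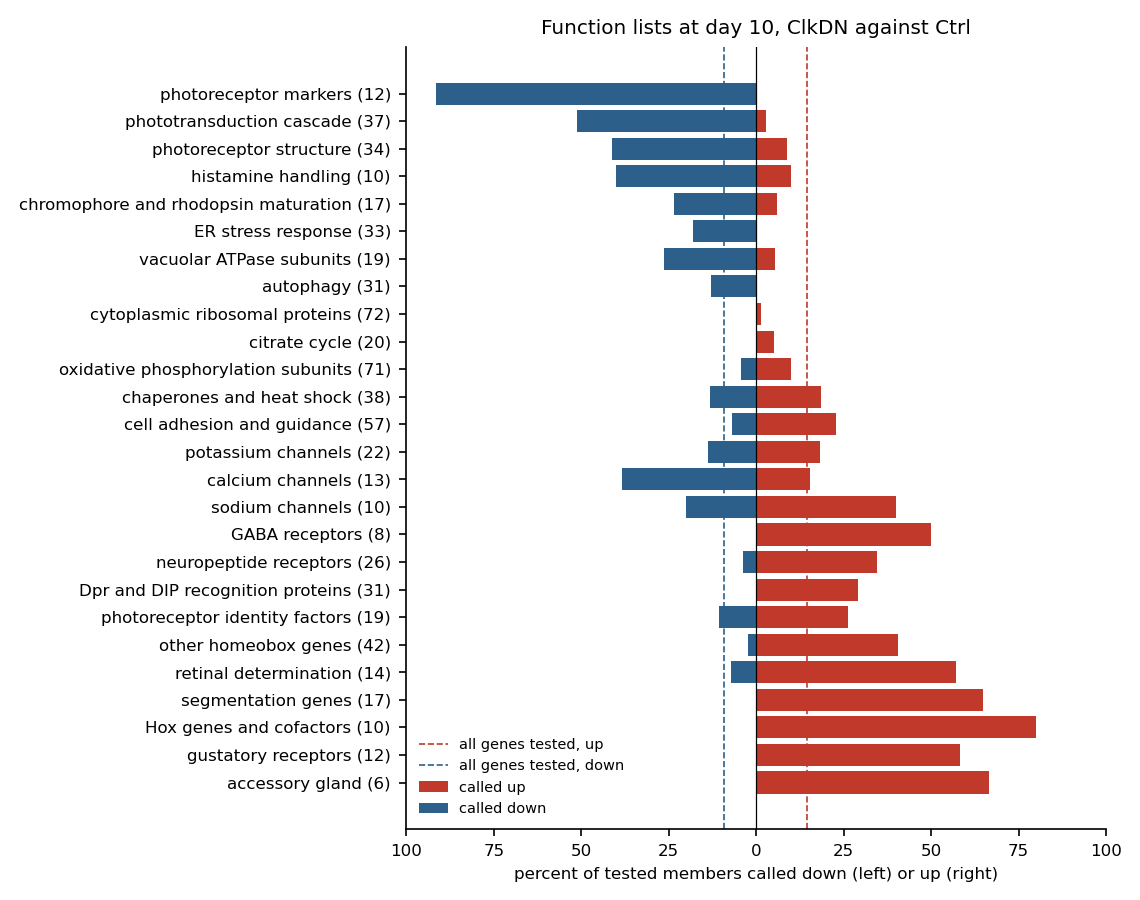
Percent of the tested members of each of 26 gene lists that rose (bars to the right) or fell (bars to the left) in Rh1>ClkDN against Rh1>Ctrl, with the number tested beside each name; dashed lines mark the 14.5% and 9.07% of all genes tested. Photoreceptor markers and phototransduction have the longest bars to the left, and Hox, segmentation, accessory gland and gustatory receptor genes are among the longest to the right. In 6 of 12 gustatory receptor and 3 of 6 accessory gland genes tested, no Rh1>Ctrl library held more than 3 counts. The same held for 5 of 17 segmentation genes and 2 of 10 Hox genes. Those members passed the filter only through Rh1>ClkDN, so they had to be higher there.

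The rises were not spread evenly over the genome. Of 1427 tested genes on the X chromosome, 363 rose (25.4%) and 78 fell (5.47%), with a median log2 fold change of 0.31. Of 6320 tested genes on chromosome arms 2L, 2R, 3L and 3R, 760 rose (12.0%) and 625 fell (9.89%), with a median of -0.09. The X chromosome had the higher share of rises at all levels of expression. In the 5 bins of mean CPM with equal numbers of genes, 20.1% to 30.7% of X genes and 9.80% to 17.2% of autosomal genes rose. The difference between the medians was 0.39 and lay between 0.34 and 0.47 in all alternative settings.

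Reads of X genes made up 27.5%, 27.8% and 27.7% of the counts in the Rh1>ClkDN libraries, against 18.1%, 21.4% and 17.9% in the Rh1>Ctrl libraries. The means were 27.7 ± 0.162% in Rh1>ClkDN and 19.1 ± 1.95% in Rh1>Ctrl (SD, n = 3 each), and the groups did not overlap. A two-sided exact permutation test gave p = 0.1, the smallest that 3 against 3 libraries allow. With para left out, the shares were 25.7% to 25.9% in Rh1>ClkDN and 17.9% to 21.4% in Rh1>Ctrl. With all genes called at day 10 left out, they were 24.3% to 24.5% in Rh1>ClkDN and 19.0% to 25.1% in Rh1>Ctrl, and the groups then overlapped (exact permutation p = 0.4) through replicate 2 of Rh1>Ctrl. The genes left out were called from these same libraries, and more of those on the X chromosome rose than fell. Leaving them out lowers the difference by that choice alone, so this test cannot show whether the shift reaches genes not called. Male flies raise transcription of their single X chromosome through the dosage compensation complex. Of its 6 genes tested, msl-1 alone was called, with 34.3, 35.4 and 34.7 CPM in the ClkDN libraries, against 79.3, 67.2 and 53.3 CPM in the Ctrl libraries (log2 fold change -0.93 ± 0.23, adjusted p = 0.0188), a call lost without any 1 Rh1>ClkDN library. The helicase gene mle had 130.1, 126 and 128 CPM in the ClkDN libraries, against 156, 163 and 138 CPM in the Ctrl libraries and the limiting male factor gene msl-2 had 30.4, 33.4 and 26.4 CPM in the ClkDN libraries, against 26, 38.2 and 41 CPM in the Ctrl libraries, neither called. Both mle and msl-2 were picked out after their values were seen.

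The densest group of rises lay in 1 stretch of the X chromosome, chosen after its values were seen. Between positions 8714936 and 9269925 of the dm6 genome, 33 of the 55 tested genes rose and 2 fell, at a median log2 fold change of 2.20. In windows of 20 neighbouring tested genes, the highest number of rises was 15, inside this stretch, from CG10962 to Bap111 (X chromosome, 8972908 to 9151976). The median window held 5 rises on the X chromosome and 2 on each of the large autosomal arms, where the highest was 12 on 2L. Genes on the plus strand made up most of the rises. On that strand 25 of 31 genes rose, with a median log2 fold change of 3.68, and on the minus strand 8 of 24 rose, with a median of 0.18. Over the whole X chromosome, 27.4% of plus strand genes and 23.4% of minus strand genes rose.

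The stretch includes a row of small genes behind HP1b on the same strand. Each of the next 4, APC4, CG32708, CG32706 and CG6999, rose. APC4, a subunit of the anaphase promoting complex, had 227, 231 and 238 CPM in the ClkDN libraries, against 9.67, 28.3 and 7.49 CPM in the Ctrl libraries (log2 fold change 4.05 ± 0.46, adjusted p = 0.000485). The values of CG32708 were 94.6, 88.3 and 105 CPM in the ClkDN libraries, against 1.86, 3.54 and 0.416 CPM in the Ctrl libraries (log2 fold change 5.99 ± 0.51, adjusted p = 0.000103), and CG6999 had 33.2, 36.7 and 30.4 CPM in the ClkDN libraries, against 0.372, 0 and 0.416 CPM in the Ctrl libraries. The chaperonin subunit gene CCT2, which follows them, had 131, 169 and 151 CPM in the ClkDN libraries, against 22, 50.2 and 27.9 CPM in the Ctrl libraries (log2 fold change 2.20 ± 0.32, adjusted p = 0.00157). A similar row lay on 2L, in the window from 13179247 to 13286462. There mRF1, a mitochondrial release factor gene, had 172, 186 and 199 CPM in the ClkDN libraries, against 3.35, 2.12 and 1.67 CPM in the Ctrl libraries (log2 fold change 6.31 ± 0.31, adjusted p = 8.99e-06), and its neighbour CG16812 had 153, 175 and 149.6 CPM in the ClkDN libraries, against 5.58, 3.54 and 4.37 CPM in the Ctrl libraries (log2 fold change 5.11 ± 0.26, adjusted p = 8.99e-06). Both rows were picked out after their values were seen.

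Neighbouring genes on the same strand tended to rise together over the whole genome. Of pairs of tested genes on 1 strand with a gap of at most 1000 bases, the downstream gene rose in 42.1% of pairs whose upstream gene rose (85 of 202), and in 9.29% of the other pairs (100 of 1076). In pairs that face each other, a gene rose in 25.5% of cases where its neighbour rose and in 10.8% where it did not. In pairs that face away from each other, whose starts lie close, the values were 12.97% and 8.33%. On the autosomes alone, here with chromosome 4 included, the same-strand values were 37.4% and 8.24%, and those of pairs facing away were 7.02% and 6.67%. Without replicate 2 of Rh1>Ctrl, the same-strand values were 48.1% and 12.1%. For falls, the downstream gene fell in 22.0% of same-strand pairs whose upstream gene fell and in 8.08% of the others. Pairs share libraries and often lie in rows, so these are descriptions with no test.

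The length of a gene's span also went with its call. In 5 bins of span with equal numbers of tested genes, 23.4% rose and 11.1% fell in the bin with the longest genes. In the middle bin 9.52% rose and 10.03% fell, and in the bin with the shortest genes 14.3% rose and 3.25% fell. The part of nuclear pre-mRNA, gene length and read-through between neighbours in the calls was not tested.

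**Figure D5:**
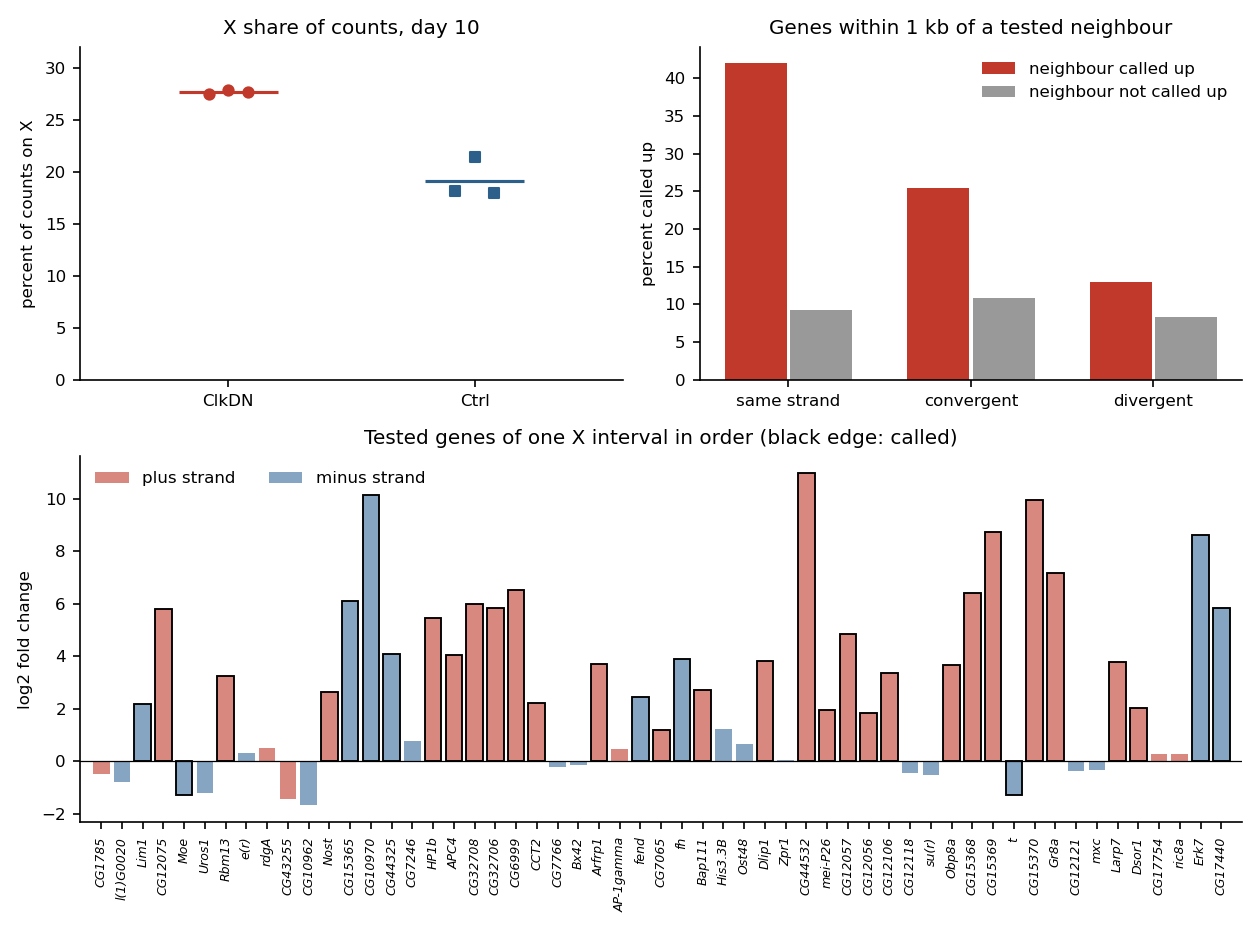
Top left, percent of counts from X genes in each library, Rh1>ClkDN left of Rh1>Ctrl. Top right, percent of genes that rose when the neighbour within 1000 bases rose or did not, for each orientation of the pair. Bottom, log2 fold change of the 55 tested genes of the X stretch in their order, coloured by strand, with a black edge for called genes. The Rh1>ClkDN libraries lie at 27.5% to 27.8%, above all Rh1>Ctrl libraries. The same-strand bars differ most (42.1% against 9.29%), and most high bars of the stretch are on the plus strand.

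The younger flies of the same genotypes, titled day 2 and described as 1 day old in the study's methods, gave a separate set of 6 libraries. In these, 842 of 8220 genes rose (10.2%) and 482 fell (5.86%). Of the 1138 genes that rose at day 10, 996 were tested in younger flies, where 494 rose, 3 fell and 499 were not called. Their median log2 fold change was 2.31 at day 10 and 1.35 in younger flies. Of the 714 that fell at day 10, 712 were tested in younger flies, where 289 fell, 2 rose and 421 were not called, with medians of -1.16 at day 10 and -0.70 in younger flies. The direction was the same at both ages for 88.96% of the day 10 rises and 92.1% of the falls, beside 69.96% of all 7480 genes tested at both ages. A call at 1 age only does not show a difference between the ages. The X chromosome also stood out in younger flies, with 22.2% of its genes rising, against 7.62% on the large autosomal arms.

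The difference between the ages was tested as an interaction over all 12 libraries. Of 9135 genes, 56 were called (0.613%), 39 with a higher effect at day 10 (0.427%) and 17 with a lower (0.186%), and 1167 had an unadjusted p under 0.05. At day 10, 36 of the 56 rose and 7 fell. The count rested on single libraries, with 12 to 18 genes called without any 1 of the day 10 Rh1>ClkDN libraries, 21 without replicate 3 of the day 10 Rh1>Ctrl libraries, 93 without replicate 1 and 117 without replicate 2 of them. At day 10, Hsp83, the cytosolic Hsp90 gene, had 505, 512 and 480.3 CPM in the ClkDN libraries. The Ctrl libraries had 814, 1335 and 681 CPM (log2 fold change -0.92 ± 0.26, adjusted p = 0.0326). In younger flies its log2 fold change was 2.47, with means of 141 CPM in Rh1>ClkDN and 25.2 CPM in Rh1>Ctrl. Rh1>ClkDN was thus below Rh1>Ctrl at day 10 and above it in younger flies, while both means were higher at day 10. CPM were scaled within the libraries of each age. The day 10 call for Hsp83 was lost without any 1 Rh1>ClkDN library or replicate 2 of Rh1>Ctrl. The giant muscle protein gene bt rose at day 10 (log2 fold change 1.33 ± 0.22, adjusted p = 0.003) and fell in younger flies (log2 fold change -0.95). CG7896 had 48.7, 37.6 and 34.7 CPM in the ClkDN libraries, against 2.23, 1.41 and 1.04 CPM in the Ctrl libraries (log2 fold change 4.72 ± 0.39, adjusted p = 8.84e-05), and was not called in younger flies (log2 fold change -1.79). The carotenoid uptake gene ninaD fell more at day 10 than in younger flies, at log2 fold changes of -3.38 and -0.98. The core clock genes that fell at day 10 also fell in younger flies, with log2 fold changes of -2.60 and -2.33 for tim, -2.22 and -1.67 for per, -2.16 and -1.90 for vri and -1.52 and -2.11 for cwo, and none of these 4 was called in the interaction.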

How the data were processed

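RNA of immuno-enriched photoreceptor nuclei was sequenced after NuGEN Ovation SoLo library preparation. The authors deposited counts of reads per gene in a table whose name says normalized. The deposited values are whole numbers with unequal library totals and were used as raw counts. The submitters' processing notes name Trimmomatic, STAR, SAMtools and DESeq2 and the dm6 genome with BDGP6 annotation. The strand setting and the annotation release are not given in the sources used here. All columns were used.

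The titles gave the genotype and age of each library. Replicates are biological replicates of 400 pooled males each. Genes with at least 10 counts in 3 of the 6 day 10 libraries were fitted with edgeR 4.0.16 in R 4.3.3, with TMM normalization and the quasi-likelihood test, and called where the fold change exceeded 1.5 and the p after Benjamini-Hochberg adjustment was under 0.05. Standard errors are of log2 fold changes. The biological coefficient of variation was 0.321. Depth was 1356529 to 4939198 counts, and a group with no count was set at 3 counts per library for a lower bound of a fold. A fit over all 12 libraries gave the interaction between genotype and age. Gene positions and strands are from the Ensembl BDGP6 annotation, which held 13866 of the 13929 gene IDs.

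The alternatives were scaling to total counts, upper quartile scaling, DESeq2 1.42.0, voom of limma 3.58.1, other filters and thresholds, all 12 libraries in one fit, a block for the replicate number, and each library left out in turn. Two-sided exact permutation tests were used for single values. The edgeR fit was tested on simulated counts with 200 changed genes. The comparison, the gene lists and the rule for named genes were chosen with earlier results of these data known. The rule named 7 clock genes, the 10 largest changes in each direction among called genes with a mean of at least 50 counts and groups apart, and in each list described up to 4 called members in each direction by abundance, beside up to 4 genes in each direction of the interaction. Genes outside it are marked as picked after their values were seen. The table holds no sequence, and promoters were not used here.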

Additional observations from a re-analysis of the deposited data

Results flagged for a closer look

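The effect of ClkDN at day 10 differed from that in younger flies for 56 genes by the interaction over all 12 libraries (edgeR's quasi-likelihood test, adjusted p under 0.05). Values are given for those of them that belong to a gene list or to the named genes, as the log2 fold change at day 10 minus that in younger flies. They compare fold changes between the ages and do not give the direction in which a gene's level moved with age. The fold change was higher at day 10 for Yp1, encoding a yolk protein (9.14), CG7896 (6.58), CG2861 (5.62) and the cytochrome P450 gene Cyp4ae1 (3.52). It was also higher for CG6912 (2.95), CG6231 (2.42), the muscle gene bt (2.37) and the allatostatin A receptor gene AstA-R1 (2.25). The same held for the recognition gene dpr9 (1.80), the channel gene Ih (1.77), fred (1.76), the NF-kappaB gene Dif (1.74), the phosphodiesterase gene Pde9 (1.47) and the Fos gene kay (1.37). It held too for mRF1 (2.27) and CG16812 (2.07) in their row on 2L. The fold change was lower at day 10 for the small heat shock gene Hsp26 (-3.35), Hsp83 (-3.28), r-cup (-3.06), the homeobox gene ap (-2.81) and the carotenoid receptor gene ninaD (-2.32). It was lower too for the teneurin gene Ten-m (-2.05), the sodium pump subunit gene nrv2 (-1.85) and the cotransporter gene Ncc69 (-1.79). The collagen gene Mp (-1.53) and the ecdysone-induced gene Eip75B (-1.41) also had a lower fold change. Yp1 had no count in any day 10 Ctrl library, so its value is no bound. The number called moved with single libraries, as given for the interaction counts, and the part of those libraries in single values was not tested.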

How the results depend on the processing

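The counts of calls moved more than their direction. With a mean count of 50 or more required, 704 genes rose and 467 fell (1171 in all), and at an adjusted p under 0.01 664 rose and 257 fell (921 in all). With the replicate number as a block, 763 rose and 333 fell (1096 in all) and 30 were called in the interaction. Same-numbered libraries did not deviate together (correlations of -0.0726, -0.0712 and 0.0119), so the numbers were not taken to pair the samples. With each library left out in turn, 393 to 1527 genes rose and 155 to 923 fell (552 to 2450 in all), and 12 to 117 were called in the interaction. The fits without a ClkDN library, and that without replicate 3 of Ctrl, gave the lowest counts, and those without replicate 1 or 2 of Ctrl the highest. The interaction gave 108 genes with scaling to total counts, 136 with a mean count of 50 or more and 269 with DESeq2. Scaling to total counts gave 1202 rises and 530 falls, a share of rises of 69.4% in place of 61.4%. The difference in the X share of counts, ClkDN minus Ctrl, was 3.06 percentage points without the genes called at day 10 in place of 8.53, an alternative chosen after seeing the data. Those genes were called from the same libraries, and that choice by itself lowers the difference. Of 329 named genes, 169 kept their call, or the lack of one, in every alternative that tested them, 155 lost a call in at least 1, 5 gained one and none reversed. Depth limits the genes near 0 in Ctrl, where the shallowest library held 1356529 counts.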
